A study of Mus musculus with 24 samples.

Results

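Interferon-stimulated genes are the genes whose transcription rises when a cell answers interferon, and 47 of them were followed here in cultured mouse fat precursors before and after adipocyte differentiation. The rule listed them by name, with no threshold on a measured value, and all 47 were found among the 24825 genes listed for each library. The study asked what the transcription factor NFIA, and a proline-rich segment near its C-terminus, do in adipocytes. Stromal vascular cells of inguinal white fat (ingSVF) from Nfia flox/flox mice, whose Nfia gene can be cut by Cre recombinase, were immortalised with SV40 large T antigen and then infected with retroviruses. RNA was sequenced at confluence (day 0) and after 7 days of thermogenic adipocyte differentiation, giving 8 groups of 3 libraries, 24 in all.

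The 4 cell types were ctrl cells, which received an empty vector, Cre cells, which received Cre recombinase, and 2 derivatives of the Cre cells. One derivative, Cre + NFIA, carried FLAG-tagged full-length NFIA from a retrovirus, and the other, Cre + NFIA Δpro#3, carried a FLAG-tagged mutant without the C-terminal proline-rich segment named pro#3. All 4 carried the same floxed alleles, the large T antigen and at least 1 retroviral vector, so no group was free of viral vectors. Day 7 cells of every type had received the same cocktail of isobutylmethylxanthine, indomethacin, dexamethasone, insulin, T3 and rosiglitazone, the last 3 of which stayed in the medium after the others were withdrawn. The transgenes were driven from a retroviral promoter and not from the Nfia locus. The number of mice and of separate infections behind the libraries is not given in the sources used here, so the p-values measure only the spread between these libraries, which may be technical.

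Type I interferons bind a receptor of the subunits IFNAR1 and IFNAR2, the kinases JAK1 and TYK2 then phosphorylate STAT proteins, and STAT2 joins IRF9 in a complex called ISGF3. ISGF3 binds the interferon-stimulated response element (ISRE) in promoters and turns on sensors of foreign nucleic acid, antiviral effector proteins and chemokines, while STAT dimers bind a different site, called GAS. Several products of these genes, among them STAT2, IRF7 and the RNA sensors, are themselves parts of the pathway. Many cells, fibroblasts and fat precursors included, express interferon-stimulated genes at a low level without infection.

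The ISRE was searched in RefSeq promoters (assembly GRCm38.p6, from 250 bases before to 50 after the start of each gene) on both strands, as the letters GAAA repeated once with any 2 bases between them. Of the 35 members with a promoter in that table, 19 held it, or 54.3%, against 3.99% of all 27025 genes there. The GAS, TTC and GAA with any 3 bases between them, was in 9 of the 35 members, 25.7%, against 9.55% of all genes. The palindrome of TTGGC and GCCAA with any 5 bases between them, the full site that NFI proteins bind, was in 1 member, Oasl1, and in 12 genes in all, 0.0444%. A match of this kind describes the letters only and is no measurement of binding, and a promoter without a match lacks only these letters in this window. The stretches that hold the matches are shown for 6 members with the ISRE that recur below and for Oasl1, on the gene's strand, with the matching letters in capitals. ISRE matches in Isg15 overlapped one another.
Isg15: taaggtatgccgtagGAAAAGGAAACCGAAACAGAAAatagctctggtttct
Ifit1: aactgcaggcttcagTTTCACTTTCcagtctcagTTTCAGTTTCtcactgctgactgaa
Ifit3: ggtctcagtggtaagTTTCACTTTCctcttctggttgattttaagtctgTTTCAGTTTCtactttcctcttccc
Oas3: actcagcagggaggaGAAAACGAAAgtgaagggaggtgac
Stat2: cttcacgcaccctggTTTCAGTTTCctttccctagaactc
Cxcl10: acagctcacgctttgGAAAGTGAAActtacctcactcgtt
Oasl1: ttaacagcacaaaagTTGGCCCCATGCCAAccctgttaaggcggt
The 7 stretches lie at chr4:156200860-156200911 (minus strand) for Isg15, chr19:34640770-34640828 (plus) for Ifit1, chr19:34583358-34583431 (plus) for Ifit3, chr5:120777710-120777749 (minus) for Oas3, chr10:128270261-128270300 (plus) for Stat2, chr5:92349078-92349117 (minus) for Cxcl10 and chr5:114923116-114923160 (plus) for Oasl1. All of them end before the annotated start, the nearest one 42 bases upstream (Isg15) and the farthest reaching back to 237 bases upstream (Stat2).

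Levels are given as FPKM, fragments per kilobase of exon scaled to the fragments of the library, which allows genes of different length to be compared. Library totals recovered from these values ran from 7732829 to 14622189 fragments, and the fewest fragments behind any member in any library were 84, for Mx1. Tests were run with limma on log2(FPKM + 1) over the 12640 genes with at least 1 FPKM in at least 3 libraries, all 47 members among them. A gene is said to differ, rise or fall where the two-sided p, adjusted over those genes by the Benjamini-Hochberg method, was under 0.05. A log2 fold change, and a change counted as 3-fold, is on the scale of log2(FPKM + 1). The ctrl library of replicate 2 at day 0 was the highest of its group, with a member median of 6.91 on the log2 scale where the lowest was 6.61. The full-length NFIA library of replicate 2 at day 7 was the lowest of its group, at 5.11 against a highest of 5.32.

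Nfia itself, counted over all its exons, stood at 6.23, 6.75 and 6.43 FPKM in the ctrl libraries and 6.81, 5.34 and 6.49 FPKM in those labelled Cre at day 0. At day 7 it stood at 9.81, 9.15 and 9.70 FPKM in ctrl libraries and 10.7, 10.1 and 9.49 FPKM in Cre libraries. The ctrl and Cre libraries overlapped on both days, so the count over the whole gene, only a small part of which is the floxed exon, does not check the Cre label, and every direction given for Cre cells rests on that label. In the Cre + NFIA libraries it was 74.9, 69.7 and 72.7 FPKM on day 0 and later 97.1, 89.0 and 83.9 FPKM, and in the mutant libraries 61.7, 59.7 and 60.7 FPKM and then 111, 99.5 and 94.98 FPKM, so both transgenes were read in every library labelled with them. The study examined the deletion in Cre cells by its own measures of DNA, RNA and protein, which are not reported here.

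In the precursors the members were among the more abundant transcripts. At day 0 their median level was 105.4 FPKM in ctrl libraries, 103.7 FPKM in Cre libraries, 113.9 FPKM in Cre + NFIA and 102.8 FPKM in mutant cells, and together they took 1.79% to 2.19% of all fragments over the 12 libraries. The range was wide, from 7.78 FPKM for Cmpk2, a mitochondrial nucleotide kinase, to 1570.2 FPKM for Ifitm3, which blocks the entry of enveloped viruses, as group means in ctrl cells. At day 7 the member median was 35.2 FPKM in ctrl libraries and 37.4 FPKM in Cre + NFIA cells, against 53.6 FPKM in Cre and 48.6 FPKM in mutant cells. The share of all fragments was then 0.733% to 0.785% in ctrl and 0.705% to 0.832% in Cre + NFIA libraries, and 1.04% to 1.07% in Cre and 0.949% to 1.01% in mutant libraries. In that share every Cre + NFIA library was below every ctrl and Cre library at day 0, and at day 7 all Cre and mutant libraries were above all ctrl and Cre + NFIA libraries.

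**Figure D1:**
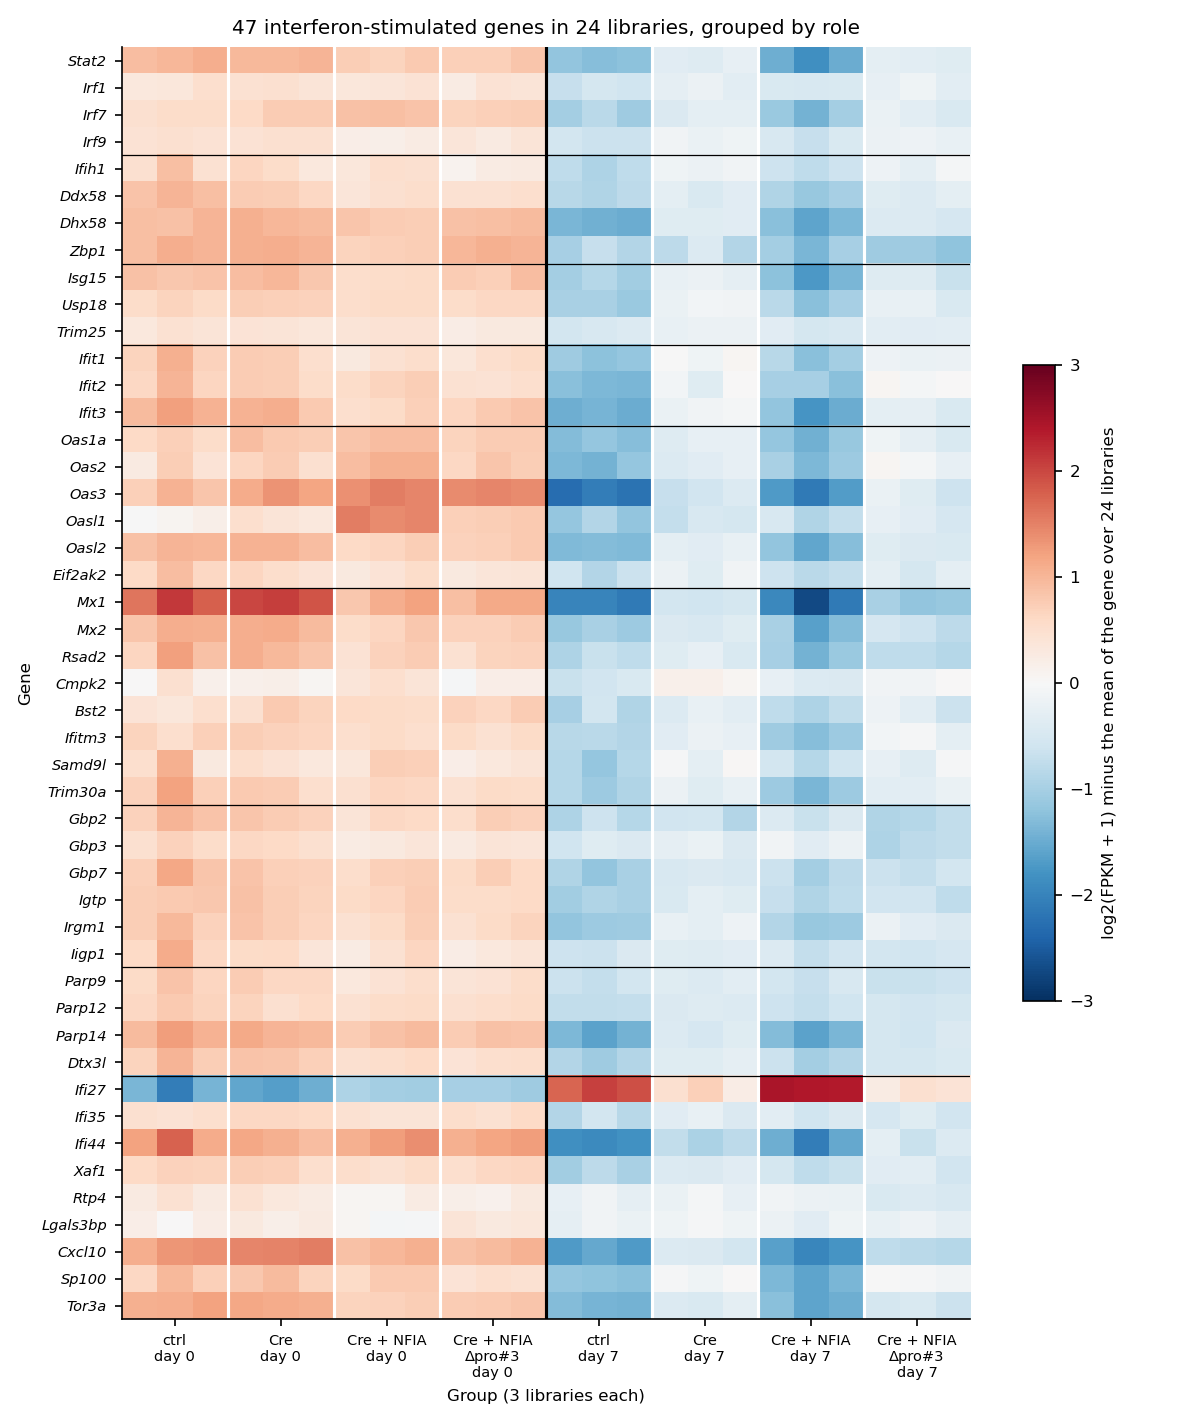
Level of each of the 47 interferon-stimulated genes (rows, grouped by role with black lines between roles) in each of the 24 libraries (columns, 3 per group, day 0 left and day 7 right of the black line), as log2(FPKM + 1) minus the mean of the gene over the 24 libraries. Nearly all rows turn from red to blue between the days, more deeply in ctrl and Cre + NFIA than in Cre and Cre + NFIA Δpro#3 libraries, and Ifi27 runs the other way.

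Over the 7 days of differentiation the interferon-stimulated genes fell almost as a block in each cell type. In ctrl cells 46 of 47 members were lower at day 7 and 1 was higher, where 38.1% of all genes tested were lower and 32.9% higher. The median member changed by -1.75 on the log2 scale, beside -0.05 over all genes. A 3-fold or larger fall was seen in 28 members, against 2.86% of all genes. In bulk RNA fewer cells that express a gene and less of its RNA per cell cannot be told apart.

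Cre + NFIA cells came next, with 46 members lower and 1 higher (background 38.3% lower and 31.8% higher), a median of -1.58 beside -0.05 over all genes, and 23 members lower by 3-fold or more against 3.31% of all genes. In Cre cells 45 members were lower and 1 higher (background 21.6% and 30.0%), but the median was -0.99 beside 0.05 over all genes and 5 members passed 3-fold, against 0.467%. The mutant cells gave 45 lower and 1 higher (background 17.0% and 24.5%), a median of -1.01 beside 0.05, and 5 members past 3-fold, against 0.316%. The member that was higher in all 4 was Ifi27, and the one that passed the test in neither direction in Cre and in mutant cells was Cmpk2, with log2 differences of -0.00 and -0.19.

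The largest falls were those of effectors. Mx1, a dynamin-like GTPase that traps viral nucleocapsids, stood at 63.5, 91.8 and 72.8 FPKM in ctrl cells at day 0 and 4.35, 4.36 and 3.88 FPKM at day 7 (limma log2 difference -3.87 with SE 0.15 and adjusted p = 4.1e-15). In Cre cells it went from 83.4, 87.5 and 77.0 FPKM to 13.5, 13.0 and 13.8 FPKM (limma log2 difference -2.53 with SE 0.15 and adjusted p = 1.8e-11). No library of one day overlapped the other day in either cell type. Ifi44, an interferon-induced protein of the cytoplasm, gave 160.1, 235 and 149 FPKM in ctrl cells at day 0 and 18.4, 17.4 and 18.8 FPKM at day 7 (limma log2 difference -3.22 with SE 0.15 and adjusted p = 9.8e-14). Parp14, a mono-ADP-ribosyltransferase, differed by -2.55 in ctrl and -2.28 in Cre + NFIA cells on the log2 scale, where both were among the 8 largest differences. In mutant cells the largest after Mx1 was that of Zbp1, a sensor of left-handed nucleic acid, from 178, 185 and 181 FPKM to 41.8, 41.4 and 37.7 FPKM (limma log2 difference -2.14 with SE 0.11 and adjusted p = 1.8e-12).

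The fall was shared by every role. In ctrl cells the median log2 difference was -1.28 for the 4 transcription factors, -1.81 for the 4 nucleic acid sensors, -1.61 for the 3 genes of the ISG15 system, -2.09 for the 3 IFIT genes and -1.83 for the 6 genes of OAS proteins and PKR. It was -1.65 for the 8 other antiviral effectors, -1.70 for the 6 GTPases of the GBP and IRG families, -1.59 for Parp9, Parp12, Parp14 and Dtx3l, and -1.58 for the 9 remaining members. In Cre cells the same medians lay between -0.83 (IFIT genes) and -1.22 (sensors). The smallest falls in ctrl cells were those of Lgals3bp, a secreted glycoprotein (-0.34), and Rtp4, a chaperone of membrane receptors (-0.54).

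At day 7 the libraries labelled Cre held more RNA of nearly all interferon-stimulated genes than the ctrl libraries. Of the 47 members 41 were higher and 1, Ifi27, was lower, where 36.1% of all genes tested were higher and 22.7% lower. The median member differed by 0.63 on the log2 scale beside 0.09 over all genes. With median-of-ratios scaling, which moved the median of all genes by -0.10, 38 members were higher and 1 lower, with a member median of 0.50, and the calls of Bst2, Parp9 and Iigp1 were lost. That of Iigp1 was also lost without the filter on low levels, with quantile normalization and with limma voom on recovered fragments. The differences were moderate: on the log2(FPKM + 1) scale Oas3 alone passed 3-fold upward. Mx1 reached 2.78-fold on that scale, which lessens the fold of genes at low FPKM.

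All 4 transcription factors were higher in Cre than in ctrl cells. Stat2, a subunit of ISGF3, stood at 64.1, 60.0 and 61.8 FPKM in ctrl libraries and 116, 112 and 123 FPKM in Cre libraries at day 7 (log2 difference 0.90). Irf7, which amplifies the interferon response, stood at 106, 123 and 102 FPKM and 159.6, 176 and 177 FPKM (0.63). The groups did not overlap for either gene, and the difference was smaller for Irf9, the DNA-binding subunit of ISGF3 (0.46), and for Irf1 (0.35). Irf9 overlaps the gene Rnf31 on the same strand, where the counting could divide fragments between them.

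Among the sensors, Ifih1 (MDA5), Ddx58 (RIG-I) and Dhx58 (LGP2), the cytoplasmic helicases that detect viral RNA, were higher by 0.68, 0.47 and 1.08. Dhx58 was at 33.6, 31.8 and 31.0 FPKM in ctrl libraries and 68.7, 68.3 and 69.4 FPKM in Cre cells. Zbp1 overlapped between the groups, at 43.6, 54.8 and 47.3 FPKM in ctrl libraries and 50.8, 66.0 and 47.2 FPKM in Cre cells, and did not pass the test.

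The 3 genes of the ISG15 system were higher as well. Isg15, a ubiquitin-like protein that is attached to other proteins, stood at 244, 271 and 239 FPKM in ctrl libraries and 424, 435 and 408 FPKM in Cre libraries (log2 difference 0.75). Usp18, which removes ISG15 and dampens the interferon receptor, differed by 0.89, and Trim25, a ubiquitin ligase that acts on RIG-I, by 0.29.

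The 3 IFIT genes, whose products bind foreign RNA and curb translation, had a median log2 difference of 1.17, the largest of any role. Ifit3 stood at 55.4, 57.6 and 54.2 FPKM in ctrl libraries and 134, 143 and 147 FPKM in Cre libraries (limma log2 difference 1.32 with SE 0.11 and adjusted p = 2.4e-06). Ifit1 gave 58.2, 51.7 and 54.6 FPKM and 122, 112 and 129 FPKM (limma log2 difference 1.13 with SE 0.09 and adjusted p = 1.6e-06). Ifit2, the least abundant of them, gave 4.61, 4.22 and 4.18 FPKM and 11.6, 9.27 and 12.4 FPKM (limma log2 difference 1.17 with SE 0.10 and adjusted p = 2.6e-06). Every Cre library was above every ctrl library for all 3. The promoters of Ifit1 and Ifit3 each hold 2 of the ISRE matches printed above.

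All 6 genes of the OAS proteins and of PKR (Eif2ak2), a kinase that stops translation, were higher. OAS proteins with synthase activity, which Oasl1 lacks, make oligoadenylate that activates RNase L. Oas3 showed the largest difference of any member, from 3.07, 3.65 and 3.29 FPKM in ctrl libraries to 11.3, 12.3 and 14.0 FPKM in Cre libraries (limma log2 difference 1.64 with SE 0.13 and adjusted p = 1.7e-06). Oas1a, Oas2 and Oasl2 differed by 0.96, 0.98 and 1.03, and Oasl1 and Eif2ak2 by 0.49 and 0.50. Oas genes are paralogs, genes related by sequence, as are the Ifit, Gbp and Mx genes. Although the authors kept only fragments with a single alignment, levels of single paralogs are uncertain where their sequences are alike.

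The 8 other antiviral effectors were all higher. Mx1 rose from 4.20 ± 0.272 FPKM (SD, n = 3) in ctrl to 13.4 ± 0.435 FPKM in Cre cells (limma log2 difference 1.48 with SE 0.15 and adjusted p = 7.9e-06). Rsad2 (viperin), Cmpk2, Mx2, Bst2 (tetherin), Ifitm3, Samd9l and Trim30a differed by 0.42 to 0.86 on the log2 scale. Ifitm3, the most abundant member in Cre cells, stood at 567, 577 and 552 FPKM in ctrl libraries and 805, 901 and 858 FPKM in Cre libraries.

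The GTPases were mixed. Igtp, Irgm1, Iigp1 and Gbp7, of families that are recruited to the vacuoles of intracellular pathogens, were higher by 0.60, 0.88, 0.20 and 0.55. Gbp2 and Gbp3 did not pass the test, at differences of 0.13 and 0.17. Parp9, Parp12, Parp14 and Dtx3l, whose products modify proteins with ADP-ribose or ubiquitin, were all higher, with Parp14 at 1.04 and the other 3 between 0.28 and 0.61. Parp9 and its partner Dtx3l start 681 bases apart on opposite strands and overlap, and were counted by strand.

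Of the remaining 9 members, Cxcl10, Sp100, Ifi44, Tor3a, Xaf1 and Ifi35 were higher, Ifi27 was lower, and Rtp4 and Lgals3bp did not pass the test, at 0.05 and 0.10. Cxcl10, a chemokine that attracts T cells, stood at 56.0, 63.0 and 56.2 FPKM in ctrl libraries and 139, 137 and 125 FPKM in Cre libraries (limma log2 difference 1.18 with SE 0.08 and adjusted p = 7.1e-07). Sp100, a component of nuclear bodies, stood at 22.2, 21.3 and 20.8 FPKM and 49.8, 46.5 and 51.3 FPKM (limma log2 difference 1.16 with SE 0.07 and adjusted p = 2.9e-07). Neither gene overlapped between the groups.

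**Figure D2:**
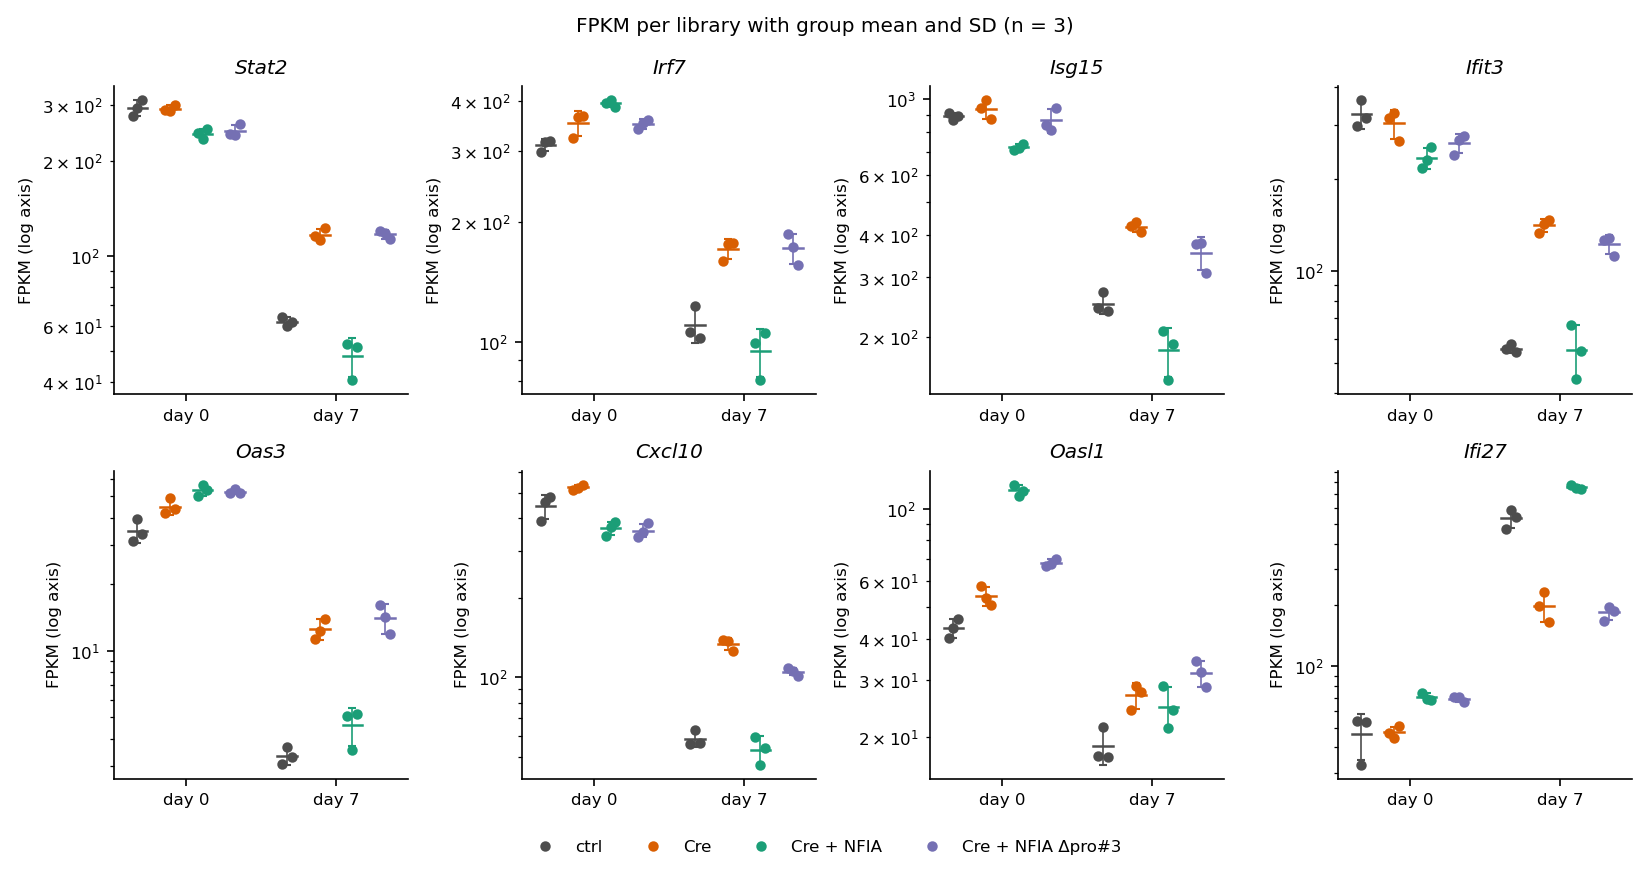
FPKM (log axis) of 8 interferon-stimulated genes in every library, with the mean and SD of each group (n = 3), for ctrl (grey), Cre (orange), Cre + NFIA (green) and Cre + NFIA Δpro#3 (purple) at day 0 and day 7. At day 7 Stat2, Irf7, Isg15, Ifit3, Oas3 and Cxcl10 lie higher in Cre and mutant than in ctrl and Cre + NFIA libraries, Oasl1 is highest in Cre + NFIA cells at day 0, and Ifi27 is higher at day 7 in all groups.

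With full-length NFIA expressed in the Cre cells, the members were lower again at day 7. Against Cre cells 40 members were lower and 1, Ifi27, was higher, where 35.9% of all genes tested were lower and 27.0% higher. The median member differed by -0.65 beside -0.06 over all genes. This comparison and the one above share the Cre libraries, so their sizes are not independent of each other. Without the Cre + NFIA library of replicate 2, the lowest of its group, 37 members were lower and 1 higher.

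Stat2 stood at 52.7, 40.6 and 51.5 FPKM in the Cre + NFIA libraries, below each Cre library (limma log2 difference -1.27 with SE 0.08 and adjusted p = 1.4e-07). Isg15 stood at 209, 149.8 and 192 FPKM (limma log2 difference -1.21 with SE 0.11 and adjusted p = 2.3e-06), and Irf7 at 99.2, 80.3 and 105 FPKM, a log2 difference of -0.85 from Cre cells. Both were below all 3 Cre libraries. Ifit3 was at 66.8, 44.2 and 54.6 FPKM (limma log2 difference -1.36 with SE 0.11 and adjusted p = 9.5e-07). Oas3 was at 5.08, 3.57 and 5.19 FPKM (limma log2 difference -1.28 with SE 0.13 and adjusted p = 5.3e-06). Mx1 was at 4.55, 2.27 and 3.86 FPKM (limma log2 difference -1.70 with SE 0.15 and adjusted p = 1.5e-06), the one member that was lower by more than 3-fold. Cxcl10 at 59.4, 46.5 and 53.8 FPKM (limma log2 difference -1.32 with SE 0.08 and adjusted p = 9.4e-08) and Sp100 at 19.4, 16.3 and 19.0 FPKM (limma log2 difference -1.38 with SE 0.07 and adjusted p = 1.7e-08) completed the 8 largest differences together with Ifi27.

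By role, and as deposited, all 4 transcription factors, all 4 sensors, all 3 genes of the ISG15 system, all 3 IFIT genes, all 8 other antiviral effectors and all 4 of Parp9, Parp12, Parp14 and Dtx3l were lower. Of the OAS proteins and PKR 5 of 6 were lower, Oasl1 being the exception (-0.12). Of the GTPases 4 of 6 were lower, with Gbp2 and Gbp3 at 0.17 and 0.09. Of the remaining 9 members 5 were lower, and Ifi35, Rtp4 and Lgals3bp, at -0.12, -0.01 and -0.11, did not pass the test. With median-of-ratios scaling 35 members were lower, and the calls of Irf1, Zbp1, Parp9, Iigp1 and Xaf1 were lost, all but that of Zbp1 with limma voom too.

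The Cre + NFIA cells were also set directly against ctrl cells at day 7. Of 47 members 3 were higher, Ifi27, Oasl1 and Xaf1, and 5 were lower, Isg15, Rsad2, Stat2, Ifitm3 and Sp100, where 8.81% of all genes tested were higher and 9.15% lower, so the share of members called was near that of all genes. The median member differed by 0.04 beside 0.02 over all genes. Isg15 (limma log2 difference -0.46 with SE 0.11 and adjusted p = 0.016) and Rsad2 (limma log2 difference -0.40 with SE 0.11 and adjusted p = 0.021) gave the largest falls. Their ctrl and Cre + NFIA libraries did not overlap. The split rested on single libraries and on the scaling, with 7 higher and 1 lower without the Cre + NFIA library of replicate 2, 6 higher and 2 lower without the ctrl library of replicate 2, and 1 higher and 5 lower with either median-of-ratios scaling or quantile normalization. A p that missed the threshold does not show that the levels were equal.

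With the Δpro#3 mutant in place of full-length NFIA, 8 of the 47 members were lower than in Cre cells at day 7 and 0 were higher, where 10.0% of all genes tested were lower and 7.70% higher, and the median member differed by -0.13 beside 0.02 over all genes. With both directions pooled, the share of members called was near that of all genes, but every called member was lower. Among the 47 members 35 had a negative log2 difference from Cre cells and 12 a positive difference. Mutant and Cre libraries did not overlap for 23 members with lower mutant levels and for 2 with higher levels. These signs and gaps were not compared with those of all genes. The 8 called members were Mx1, Gbp3, Rsad2, Zbp1, Cxcl10, Rtp4, Parp9 and Igtp. Mx1 stood at 9.79, 8.36 and 8.61 FPKM in the mutant libraries (limma log2 difference -0.54 with SE 0.15 and adjusted p = 0.029) and Cxcl10 at 108, 105 and 101 FPKM (limma log2 difference -0.34 with SE 0.08 and adjusted p = 0.013), each between the Cre and the ctrl libraries. Gbp3 at 91.8, 101 and 104 FPKM (limma log2 difference -0.52 with SE 0.08 and adjusted p = 0.0017) and Rtp4 at 86.3, 89.2 and 84.3 FPKM (limma log2 difference -0.29 with SE 0.06 and adjusted p = 0.0060) were below the libraries of every other cell type. Leaving out 1 library at a time gave 3 to 6 calls, 3 without Cre replicate 2 and 5 without Cre replicate 1 or without mutant replicate 3. The call of Mx1 was lost with a pseudocount of 0.1 and without the filter on low levels, and that of Igtp without the filter and with only the groups compared in the model.

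Against full-length NFIA, mutant cells had 35 members higher and 4 lower at day 7, where 40.4% of all genes tested were higher and 28.9% lower. The median member differed by 0.50 beside 0.10 over all genes. Oas3, at 16.2, 14.3 and 11.9 FPKM in mutant libraries, gave the largest rise (limma log2 difference 1.43 with SE 0.13 and adjusted p = 1.3e-06). Sp100 (limma log2 difference 1.39 with SE 0.07 and adjusted p = 7.8e-09), Stat2 (limma log2 difference 1.27 with SE 0.08 and adjusted p = 7.2e-08) and Ifi44 (limma log2 difference 1.24 with SE 0.14 and adjusted p = 8.7e-06) followed. The lower members were Ifi27, Gbp2, Gbp3 and Rtp4. Parp12 was higher by 0.11 but had the opposite sign with median-of-ratios scaling, and 4 further calls, those of Irf1, Oasl1, Bst2 and Xaf1, were lost with it.

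Against ctrl cells, mutant cells had 38 members higher and 3 lower at day 7, where 41.4% of all genes tested were higher and 25.4% lower, with a median of 0.53 beside 0.13. Median-of-ratios scaling moved the median of all genes by -0.12 and gave 31 higher and 4 lower. Oas3 (limma log2 difference 1.79 with SE 0.13 and adjusted p = 2.9e-07), Ifi44 (limma log2 difference 1.40 with SE 0.14 and adjusted p = 3.7e-06) and Ifit2 (limma log2 difference 1.32 with SE 0.10 and adjusted p = 3.9e-07) gave the largest rises. Ifi44 stood at 55.9, 42.7 and 50.9 FPKM in mutant, 40.3, 34.6 and 39.4 FPKM in Cre and 18.4, 17.4 and 18.8 FPKM in ctrl libraries, each mutant library above each Cre library. Its difference between mutant and Cre cells, 0.37 on the log2 scale, did not pass the test.

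Placed in order by their means at day 7, 38 members had both the Cre and the mutant mean above both the ctrl and the Cre + NFIA mean. For 32 members all 6 Cre and mutant libraries lay above all 6 ctrl and Cre + NFIA libraries. The 15 without such a gap were Bst2, Gbp2, Gbp3, Gbp7, Ifi27, Ifi35, Igtp, Iigp1, Lgals3bp, Oasl1, Parp9, Rsad2, Rtp4, Xaf1 and Zbp1. The highest mean was that of Cre cells for 32 members, of mutant cells for 12 and of Cre + NFIA cells for 3. The lowest was that of ctrl cells for 23, of Cre + NFIA cells for 18 and of mutant cells for 6. These orders were not counted over all genes, so whether they are particular to the members was not tested. Of all genes tested, 36.1% were higher in Cre than in ctrl cells at day 7 and 40.4% in mutant than in Cre + NFIA cells.

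**Figure D3:**
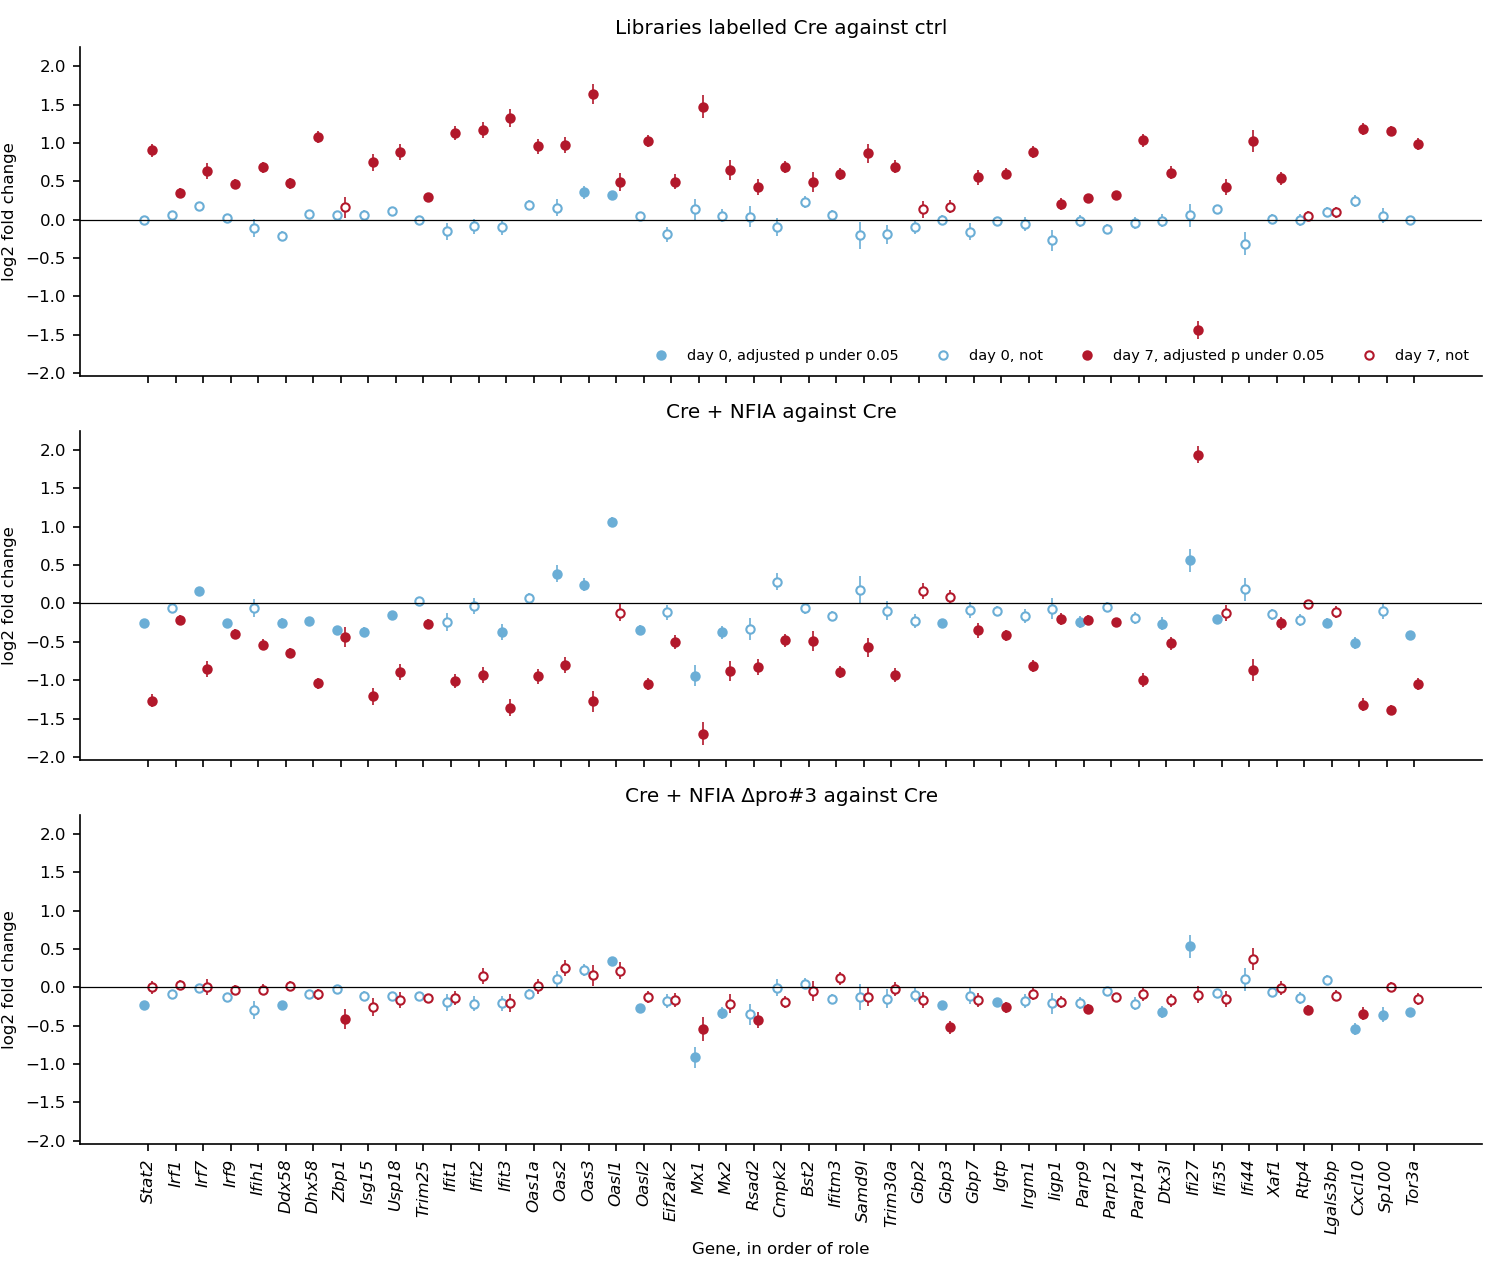
Log2 fold change on the log2(FPKM + 1) scale, with its SE, of the 47 members (horizontal axis, in order of role) in libraries labelled Cre against ctrl (top), Cre + NFIA against Cre (middle) and Cre + NFIA Δpro#3 against Cre (bottom), at day 0 (blue) and day 7 (red); filled points passed an adjusted p of 0.05. At day 7, 41 points are filled above 0 in the top panel, 40 are filled below 0 in the middle panel and 8 in the bottom panel.

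Before differentiation, at day 0, Cre against ctrl cells had 2 members higher, Oas3 and Oasl1, and 0 lower, where 1.63% of all genes tested were higher and 1.70% lower. The member median was 0.00 beside 0.01 over all genes. Oas3 stood at 31.5, 39.5 and 33.9 FPKM in ctrl libraries and 41.9, 49.0 and 43.8 FPKM in Cre libraries (limma log2 difference 0.36 with SE 0.08 and adjusted p = 0.043), and Oasl1 at 40.3, 43.0 and 46.0 FPKM and 57.9, 53.3 and 50.7 FPKM (limma log2 difference 0.32 with SE 0.06 and adjusted p = 0.020). The groups were apart for both, yet neither call was stable: 0 members were called without ctrl replicate 1 or without Cre replicate 2, 1 without ctrl replicate 2 or 3 or without Cre replicate 3, and 4 without Cre replicate 1.

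Full-length NFIA in the precursors went with small falls of 18 members. Against Cre cells 18 members were lower and 5 higher, where 12.9% of all genes tested were lower and 14.7% higher, with a median of -0.16 beside 0.02 over all genes. The 5 higher members, a smaller share than that of all genes, were Oasl1, Oas2, Oas3, Irf7 and Ifi27. The calls of Oas3 and Irf7 were lost without the filter on low levels, with only the groups compared in the model, and with median-of-ratios scaling or quantile normalization, each of which gave 19 lower and 3 higher. Oas2 stood at 127, 140.3 and 141 FPKM in Cre + NFIA and 105, 113 and 93.1 FPKM in Cre libraries (limma log2 difference 0.39 with SE 0.11 and adjusted p = 0.021). Mx1 gave the largest fall, to 36.2, 44.2 and 47.9 FPKM from 83.4, 87.5 and 77.0 FPKM (limma log2 difference -0.94 with SE 0.13 and adjusted p = 4.5e-04). Cxcl10 (limma log2 difference -0.52 with SE 0.08 and adjusted p = 5.8e-04), Tor3a (limma log2 difference -0.42 with SE 0.05 and adjusted p = 9.6e-05) and Ifit3 (limma log2 difference -0.37 with SE 0.10 and adjusted p = 0.017) were lower too. For Mx1 and Cxcl10 every Cre + NFIA library was below every Cre library.

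Against ctrl cells at day 0, Cre + NFIA cells had 18 members lower and 6 higher, where 14.3% of all genes tested were lower and 18.8% higher, with a median of -0.22 beside 0.02. The 6 were Oasl1, Ifi27, Oas3, Oas2, Irf7 and Oas1a. Without the ctrl library of replicate 2, the highest of its group, 14 were lower and 7 higher.

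For the mutant in the precursors 11 members were lower than in Cre cells and 2, Ifi27 and Oasl1, were higher, where 9.02% of all genes tested were lower and 9.26% higher, and a median of -0.14 beside 0.01. Mx1 stood at 38.9, 45.8 and 45.9 FPKM in mutant libraries (limma log2 difference -0.91 with SE 0.13 and adjusted p = 0.0012) and Cxcl10 at 341, 354 and 382 FPKM (limma log2 difference -0.54 with SE 0.08 and adjusted p = 9.1e-04). Leaving out 1 library gave 6 to 13 calls, 6 without Cre replicate 2 or mutant replicate 1, 7 without Cre replicate 1 or mutant replicate 2, and 8 without mutant replicate 3.

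Set against ctrl cells at day 0, the mutant cells had 19 members lower and 6 higher, where 13.2% of all genes tested were lower and 17.2% higher, with a median of -0.22 beside 0.01. Quantile normalization gave 28 lower and 3 higher, with the signs of Irf7 and Lgals3bp turned. Without ctrl replicate 2 there were 9 lower and 5 higher, without mutant replicate 1 6 lower and 4 higher, and without mutant replicate 2 9 lower and 4 higher. Between the mutant and full-length NFIA at day 0, 4 members passed the test. Lgals3bp, Zbp1 and Isg15 were higher in mutant cells and Oasl1 was lower, where 4.50% of all genes tested were higher and 5.59% lower, and the median member differed by -0.02 beside 0.00 over all genes.

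Oasl1, which encodes an OAS-like protein without the synthase activity, gave the largest rise of any member with full-length NFIA at day 0. Its level was 40.3, 43.0 and 46.0 FPKM in ctrl libraries, 57.9, 53.3 and 50.7 FPKM in Cre libraries, 118, 109.7 and 113 FPKM in Cre + NFIA and 66.9, 67.8 and 70.3 FPKM in mutant libraries. No 2 cell types overlapped, and full-length NFIA was highest, above Cre (limma log2 difference 1.07 with SE 0.06 and adjusted p = 7.7e-07) and above ctrl (limma log2 difference 1.38 with SE 0.06 and adjusted p = 1.1e-07). The mutant was lower than full-length NFIA (limma log2 difference -0.73 with SE 0.06 and adjusted p = 2.1e-05). By day 7 its level was 17.6, 21.6 and 17.4 FPKM in ctrl libraries, 24.2, 28.8 and 27.6 FPKM in Cre libraries, 28.7, 21.3 and 24.3 FPKM in Cre + NFIA and 34.1, 31.6 and 28.5 FPKM in mutant libraries. The Cre + NFIA libraries then overlapped those of Cre cells. Oasl1 is also the member whose promoter holds the palindromic NFI letters, 80 to 124 bases before the start with their flanks. No binding was measured here. The neighbouring gene Oasl2 lies 11006 bases from Oasl1 on chromosome 5 (assembly NCBIM37). Oasl2 was lower in Cre + NFIA than in Cre cells at day 0, with a log2 difference of -0.34.

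Ifi27, a small membrane protein of the inner organelles, ran against most other members over the 7 days, and at day 7 in Cre against ctrl and in Cre + NFIA against Cre cells. At day 0 it stood at 53.9, 32.8 and 53.2 FPKM in ctrl libraries, 47.01, 44.5 and 50.6 FPKM in Cre libraries, 74.1, 69.2 and 68.3 FPKM in Cre + NFIA and 70.3, 70.6 and 66.4 FPKM in mutant libraries. At day 7 it stood at 474, 585 and 543 FPKM in ctrl libraries, 198, 231 and 164 FPKM in Cre libraries, 779, 752 and 738 FPKM in Cre + NFIA and 167, 197 and 187 FPKM in mutant libraries. It therefore rose in all 4 cell types, most in ctrl (limma log2 difference 3.52 with SE 0.14 and adjusted p = 5.2e-15) and Cre + NFIA cells (limma log2 difference 3.40 with SE 0.14 and adjusted p = 7.4e-15) and least in mutant cells (limma log2 difference 1.40 with SE 0.14 and adjusted p = 5.9e-08). At day 7 it was lower in Cre than in ctrl cells (limma log2 difference -1.44 with SE 0.11 and adjusted p = 1.5e-06), higher with full-length NFIA than in Cre cells (limma log2 difference 1.94 with SE 0.11 and adjusted p = 6.7e-08) and lower in mutant than in Cre + NFIA cells (limma log2 difference -2.04 with SE 0.11 and adjusted p = 2.3e-08). At day 7 both Ifi27 and the summed adipocyte markers given below were higher in ctrl and Cre + NFIA than in Cre and mutant cells.

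Gbp2 and Gbp3 were the other departures. Gbp3 fell with differentiation in each cell type, yet at day 7 it stood at 115, 137 and 128 FPKM in ctrl libraries, 145, 152 and 129.9 FPKM in Cre and 162, 138 and 156 FPKM in Cre + NFIA libraries, and lower in mutant libraries. The Cre libraries overlapped both the ctrl and the Cre + NFIA libraries, which did not overlap each other. Gbp2 stood at 43.6, 53.9 and 46.4 FPKM in ctrl libraries, 56.2, 57.2 and 44.9 FPKM in Cre libraries, 63.0, 52.7 and 61.8 FPKM in Cre + NFIA and 44.8, 46.0 and 49.9 FPKM in mutant libraries. Zbp1 was lower in mutant than in Cre cells (limma log2 difference -0.42 with SE 0.13 and adjusted p = 0.049), and the mutant libraries were at 41.8, 41.4 and 37.7 FPKM. That call was lost with a pseudocount of 0.1, without the filter, with median-of-ratios scaling, with only the groups compared in the model and with a replicate block.

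Whether the differences between cell types themselves differed between the days was tested directly. For Cre against ctrl the signed difference shifted upward from day 0 to day 7 for 38 members and downward for 1, Ifi27. Of all genes tested 29.7% rose in this sense and 19.5% fell, and the member median was 0.68 beside 0.10 over all genes. Ifit3 (limma log2 difference 1.43 with SE 0.16 and adjusted p = 5.0e-07), Mx1 (limma log2 difference 1.34 with SE 0.21 and adjusted p = 2.7e-05) and Ifi44 (limma log2 difference 1.34 with SE 0.22 and adjusted p = 3.8e-05) led the rises. For Cre + NFIA against Cre the difference shifted downward for 33 members and upward for 3, Ifi27, Gbp2 and Gbp3, where 30.1% of all genes fell and 18.8% rose, with a median of -0.63 beside -0.09. Median-of-ratios scaling moved the median of all genes by 0.11 and gave 26 downward and 5 upward, and quantile normalization gave 32 downward and 1 upward, without the calls of Gbp2 and Gbp3. Oas3 shifted most (limma log2 difference -1.52 with SE 0.16 and adjusted p = 1.7e-07), and Oas2 (limma log2 difference -1.19 with SE 0.16 and adjusted p = 2.8e-06) and Oasl1 (limma log2 difference -1.18 with SE 0.14 and adjusted p = 4.6e-07) shifted likewise. For the mutant against Cre, Sp100 shifted upward (limma log2 difference 0.36 with SE 0.12 and adjusted p = 0.043) and Ifi27 downward (limma log2 difference -0.63 with SE 0.19 and adjusted p = 0.029), where 7.79% of all genes rose and 10.4% fell, and the median was 0.01 beside 0.01. That count moved from 0 to 5 when single libraries were left out, 5 without Cre day 7 replicate 3, and median-of-ratios scaling gave 2 upward and 1 downward and quantile normalization 3 upward and 0 downward.

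Other genes of the pathway, from lists of names, were examined beside the members. Transcripts of the interferons themselves were scarce. Ifnb1, the interferon of fibroblasts, stood at 1.73, 3.23 and 2.08 FPKM in ctrl libraries, 1.92, 1.18 and 3.90 FPKM in Cre libraries, 1.58, 0.688 and 2.54 FPKM in Cre + NFIA and 2.5, 2.43 and 1.93 FPKM in mutant libraries at day 0. By day 7 its level was 0.106, 0 and 0.0920 FPKM in ctrl libraries, 0.975, 0.284 and 0.235 FPKM in Cre libraries, 0.387, 0.104 and 0 FPKM in Cre + NFIA and 0.223, 0.644 and 0.102 FPKM in mutant libraries. Ifnb1 was lower at day 7 in all 4 cell types by the limma test, with 0 to 9 fragments per library at day 7, and no difference between cell types within a day passed it. Ifna4 alone among the other ligands passed the filter on low levels. It was higher in mutant than in Cre + NFIA cells at day 7, with a log2 difference of 0.33, where 40.4% of all genes tested were higher. In the other comparisons of cell types within a day Ifna4 did not pass the test. Ifng, which encodes type II interferon, was at 0 in all libraries but 2, both of Cre cells at day 7.

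The type I receptor genes moved with the members: Ifnar1 was higher in Cre than in ctrl cells at day 7 (limma log2 difference 0.37 with SE 0.07 and adjusted p = 4.3e-04) and lower with full-length NFIA than in Cre cells (limma log2 difference -0.55 with SE 0.07 and adjusted p = 1.6e-05), and Ifnar2 likewise (0.37 and -0.49). The kinase gene Jak1 stood at 59.6, 50.4 and 53.2 FPKM in ctrl libraries, 88.2, 85.0 and 93.6 FPKM in Cre libraries, 43.1, 43.3 and 47.4 FPKM in Cre + NFIA and 108, 103 and 117 FPKM in mutant libraries at day 7. Of 9 genes tested for receptors, kinases and STAT3, 8 were higher and 0 lower in Cre than in ctrl cells at day 7, and all 9 were lower with full-length NFIA than in Cre cells. Over all genes tested 36.1% were higher and 22.7% lower in the first comparison, and 35.9% were lower in the second.

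Of 12 genes tested that sense nucleic acid or relay that signal upstream of interferon, 8 were higher and 1, Mavs, was lower in Cre than in ctrl cells at day 7. Over all genes tested 36.1% were higher and 22.7% lower in this comparison. Tmem173 (STING), which relays the sensing of cytoplasmic DNA, stood at 9.02, 7.24 and 8.495 FPKM in ctrl libraries, 16.2, 16.9 and 17.4 FPKM in Cre libraries, 7.63, 7.60 and 9.36 FPKM in Cre + NFIA and 21.0, 20.7 and 17.2 FPKM in mutant libraries. Mavs, which relays the signal of the RNA sensors, had a log2 difference of -0.65 in Cre against ctrl and 0.81 in Cre + NFIA against Cre cells. Of 8 enzymes tested that degrade or edit nucleic acids, 4 were higher and 1 lower in Cre than in ctrl cells, shares near those of all genes, with Adar at 0.74 and Samhd1 at 0.88. Of only 5 negative regulators tested 3 were higher and 0 lower, beside the same 36.1% and 22.7% of all genes. Socs1, which inhibits the JAK kinases, was at 0.67 and Socs3 at 0.65.

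Among all genes tested, the pattern of the members over the 8 group means was widely shared within the list. For 41 of the 47 members the correlation of the group means with the median of the other members was over 0.9, and for 1, Ifi27, it was under 0. The 5 others were Rtp4, Lgals3bp, Gbp3, Cmpk2 and Oasl1, between 0.84 and 0.87. Of the 50 genes most like the member median, all with r of at least 0.98 over the 8 groups, 13 were members and 37 were not. The non-members most like it were Pttg1, Mitd1, Phf11b, Gbp5 and Mlkl. The 8 means share libraries with every test above, and with 8 points, split mainly by day, high values are common, so these are descriptions.

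Members also lay side by side in the genome (assembly NCBIM37, GENCODE vM1 annotation). Ifit2, Ifit3 and Ifit1 lay at chr19:34625184-34724499, Gbp7, Gbp3 and Gbp2 at chr3:142193302-142300972, Oas2, Oas3 and Oas1a at chr5:121180342-121357536, and Mx1 and Mx2 at chr16:97668642-97782506. Neighbours did not always move alike: in Cre against ctrl cells at day 7 Gbp7 passed the test while Gbp3 and Gbp2 beside it did not. Rsad2 and Cmpk2, at chr12:27127618-27164700 with starts 12752 bases apart on opposite strands, were both higher there, by 0.42 and 0.69.

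Members with and without the ISRE letters were set side by side as a description. In Cre against ctrl cells at day 7, 17 of 19 members with it were higher, with a median of 0.68, and 15 of 16 without it, with a median of 0.58. In Cre + NFIA against Cre cells, 17 of 19 with it were lower, with a median of -0.83, and 13 of 16 without it, with a median of -0.44. In ctrl cells all 19 and all 16 were lower at day 7 than at day 0, with medians of -1.82 and -1.46. Of all genes tested 36.1% were higher in the first of these comparisons, 35.9% lower in the second and 38.1% lower in the third. The medians over all genes were 0.09, -0.06 and -0.05.

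Markers of other cells and states were read beside these results. The stromal markers Col1a1, Col3a1, Dcn, Pdgfra, Thy1 and Lum summed to 565 to 2224 FPKM over the 24 libraries, although Lum stayed at or under 1.10 FPKM. Adipocyte markers moved opposite to most members in Cre against ctrl and in Cre + NFIA against Cre cells at day 7. The summed level of 7 of them (Adipoq, Fabp4, Plin1, Cidec, Pparg, Lep and Retn) was 14.0 to 37.6 FPKM over the 12 libraries of day 0. By day 7 the sum was 19874 to 23329.8 FPKM in ctrl libraries, 3766 to 8405 FPKM in Cre libraries, 18711 to 18819 FPKM in Cre + NFIA and 626 to 1748 FPKM in mutant libraries. The 6 tested were all lower in Cre than in ctrl cells and all higher with full-length NFIA than in Cre cells. Among all genes tested 22.7% were lower in the first comparison and 27.0% higher in the second. The part of adipocyte differentiation in the day 7 result was not tested, and differences between cells and within them cannot be told apart. Mutant and Cre libraries did not overlap in that sum, while their member medians were 5.64 to 5.69 and 5.73 to 5.82 on the log2 scale.

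Leukocyte markers were low throughout. The summed level of the list was 6.09 to 16.0 FPKM over the 24 libraries, Ptprc, Itgam and Cd3e were at or under 0.0559 FPKM in each, and 4 genes of the list passed the filter on low levels. At day 7 the sum was 7.41 to 7.98 FPKM in ctrl, 8.32 to 10.1 FPKM in Cre, 6.09 to 8.09 FPKM in Cre + NFIA and 10.5 to 11.5 FPKM in mutant libraries, with every Cre and mutant library above every ctrl and Cre + NFIA library. Single genes did not all follow the sum: of the 4 tested, 1 was higher and 0 lower in Cre than in ctrl cells. With full-length NFIA 0 were higher and 1 lower than in Cre cells. Between mutant and Cre + NFIA cells 3 were higher and 1 lower in the mutant. Of all genes tested 36.1% were higher in the first comparison, 35.9% lower in the second and 40.4% higher in the third. The endothelial markers Pecam1 and Cdh5 were at or under 0.39 FPKM, and the summed endothelial list was 1.55 to 2.04 FPKM in ctrl, 2.65 to 2.78 FPKM in Cre, 1.98 to 2.62 FPKM in Cre + NFIA and 4.47 to 5.03 FPKM in mutant libraries at day 7. Of its 2 genes tested, 2 were higher in Cre than in ctrl cells. With full-length NFIA 1 was higher and 1 lower than in Cre cells. The summed stromal list was then 912 to 1007 FPKM in ctrl, 1370.2 to 1561 FPKM in Cre, 565 to 642 FPKM in Cre + NFIA and 1459.98 to 1699 FPKM in mutant libraries. Of 5 stromal markers tested 3 were higher and 1 lower in Cre than in ctrl cells, 4 were lower with full-length NFIA than in Cre cells, and all 5 were higher in mutant than in Cre + NFIA cells. The shares of all genes tested were 36.1% higher and 22.7% lower, 35.9% lower, and 40.4% higher, in that order. The 5 markers of dividing cells summed to 192 to 212 FPKM in ctrl cells at day 0 and to 254 to 265 FPKM at day 7. All 5 were higher with full-length NFIA than in Cre cells at day 0, where 14.7% of all genes tested were higher. The part of these markers in the results was not tested.

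**Figure D4:**
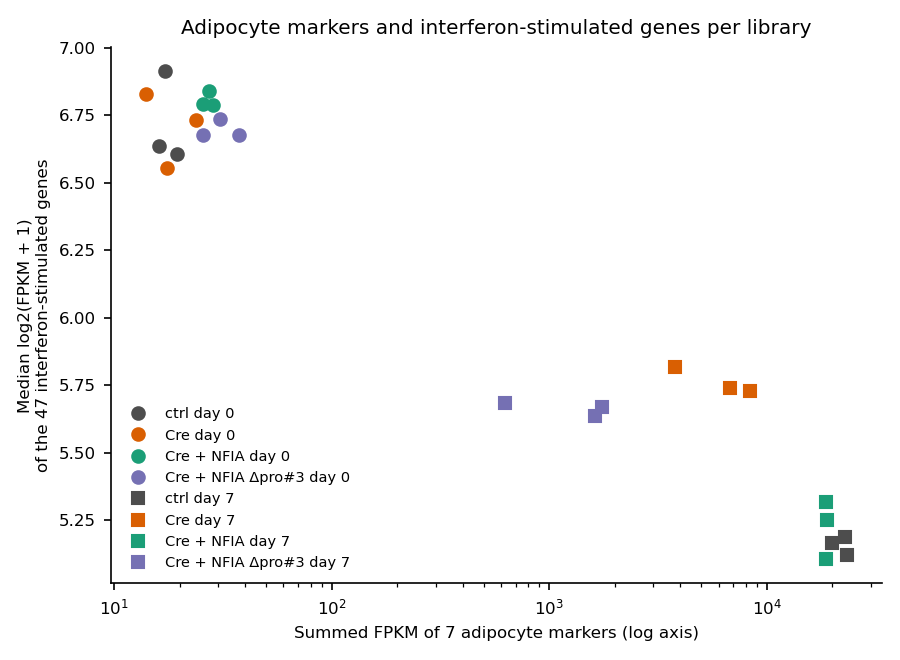
Median log2(FPKM + 1) of the 47 interferon-stimulated genes (vertical axis) against the summed FPKM of 7 adipocyte markers (horizontal log axis) in each library, at day 0 (circles) and day 7 (squares). The day 0 libraries lie together at 14.0 to 37.6 FPKM of markers, and at day 7 the ctrl and Cre + NFIA libraries, with the most marker RNA, have the lowest medians, while mutant libraries have less marker RNA than Cre libraries and slightly lower medians.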

How the data were processed

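RNA of 24 libraries (8 groups of 3; polyA RNA, stranded kit) had been aligned by the authors to mm9 with STAR 2.5.3a, keeping fragments with 1 alignment. The deposited values are FPKM, which the authors computed from strand-matched fragments per gene. Every value was a whole multiple of 1 fragment (tolerance 0.02), which gave library totals of 7732829 to 14622189 fragments. A level under 3 fragments is taken as not shown, a floor that covers counting error only.

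FPKM were analysed as log2(FPKM + 1) with limma 3.58.1 (R 4.3.3, mean-variance trend, two-sided, Benjamini-Hochberg). Genes with at least 1 FPKM in at least 3 libraries (12640 of 24825) were kept. Cell types were compared within a day over its 12 libraries, and days and interactions over all 24. The authors' own test needs counts. The procedure was tested on simulated data.

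The 47 genes and all lists were chosen with earlier results of these data known. Some genes of the other lists are not reported here and were left out of their counts and sums. Any member may be given with its levels, and test statistics are given for up to 8 called members per comparison with the largest log2 fold change, while other genes of the pathway are counted by list with called ones named. Replicate pairs differed by more than sampling noise (chi-square per degree of freedom 2.17 to 15.1 over 24 pairs). Alternatives were the pseudocounts 0.1 and 5, no filter, 2 other scalings, fewer groups per model, a replicate block, a 3-fold minimum and each library left out. One more, limma voom on the recovered reads with TMM scaling, was chosen after seeing the data. Positions are from GENCODE vM1 (NCBIM37), and promoters from RefSeq (GRCm38.p6), where 12 members had no entry: Oas2, Dhx58, Usp18, Parp14, Iigp1, Tor3a, Mx2, Mx1, Parp9, Rtp4, Ifi27 and Zbp1.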

Additional observations from a re-analysis of the deposited data

Results flagged for a closer look

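For 3 pairs of cell types the difference was itself compared between the days, by an interaction term in limma over all 24 libraries (adjusted p under 0.05). For Cre against ctrl, 39 of the 47 members gave a different value at day 7 than at day 0. Of all genes tested 29.7% shifted upward and 19.5% downward. The largest shifts on the log2 scale, day 7 minus day 0, were -1.49 for Ifi27, 1.43 for Ifit3, 1.34 for Mx1, 1.34 for Ifi44, 1.28 for Oas3, 1.28 for Ifit1, 1.26 for Ifit2 and 1.11 for Sp100.

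For Cre + NFIA against Cre, 36 members gave a different value on the 2 days, where 18.8% of all genes tested shifted upward and 30.1% downward. The largest shifts were -1.52 for Oas3, 1.38 for Ifi27, -1.28 for Sp100, -1.19 for Oas2, -1.18 for Oasl1, -1.05 for Ifi44, -1.03 for Oas1a and -1.02 for Irf7. For Cre + NFIA Δpro#3 against Cre, 2 members did, Ifi27 by -0.63 and Sp100 by 0.36. Here 7.79% of all genes tested shifted upward and 10.4% downward. The Cre libraries enter all 3 comparisons. The summed adipocyte markers also differed between the cell types at day 7 and lay together at day 0, and their part in these shifts was not tested.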

How the results depend on the processing

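Of 296 recomputed counts 237 stayed within 1.5 times the reported count and kept the direction of most calls. Of 1962 recomputed tests of single named members 1824 kept their side of the threshold, 138 lost it and 0 changed sign. With a 3-fold minimum beside the adjusted p the counts of members called were, at day 0, 0 in all 6 comparisons. At day 7 they were 1 for Cre against ctrl, 2 for Cre + NFIA against Cre, 0 for the mutant against Cre, 1 for the mutant against Cre + NFIA (Ifi27, lower, so the direction of most calls turned), 0 for Cre + NFIA against ctrl and 1 for the mutant against ctrl. Between the days they were 29 in ctrl, 6 in Cre, 24 in Cre + NFIA and 5 in mutant cells, and 0 for each of the 3 interactions. For the mutant against Cre + NFIA at day 0 a model of only these groups gave 7 calls (3 higher, 4 lower) in place of 4, turning the direction of most calls. For Cre against ctrl at day 0 the count was 1 without the filter on low levels, 1 with quantile normalization and 0 with only the groups compared in the model. For the mutant against ctrl at day 0 it was 16 without the filter and 15 with only those groups, and for Cre + NFIA against ctrl at day 7 it was 4 with only those groups. The interaction of the mutant against Cre gave 0 without the filter. The causes were not tested.

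Leaving out 1 library at a time gave, at day 0, 0 to 4 calls for Cre against ctrl, 16 to 22 for Cre + NFIA against Cre, 6 to 13 for the mutant against Cre, 3 to 6 for the mutant against Cre + NFIA, 18 to 28 for Cre + NFIA against ctrl and 10 to 30 for the mutant against ctrl. At day 7 the ranges were 41 to 42, 38 to 41, 3 to 6, 35 to 40, 4 to 8 and 39 to 41 in the same order. For Cre + NFIA against ctrl at day 7 the 8 calls without ctrl replicate 2 (6 higher, 2 lower) and the 8 without Cre + NFIA replicate 2 (7 higher, 1 lower) turned the direction of most calls, and 4 remained without ctrl replicate 1 or 3 and 5 without Cre + NFIA replicate 3. Between the days the ranges were 47 to 47 in ctrl, 46 to 46 in Cre, 46 to 47 in Cre + NFIA and 45 to 46 in mutant cells, and for the interactions 36 to 39, 32 to 36 and 0 to 5.

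Replicate numbers did not pair the libraries: same-numbered libraries of 2 groups had correlations of -0.27 to 0.22 in their deviations, and 0 of 16 comparisons had all 3 over 0.1. With a replicate block the interaction of the mutant against Cre gave 1 call in place of 2, and the other 18 counts stayed within 1.5 times. The voom alternative gave 40 members higher and 1 lower for Cre against ctrl, and 36 lower and 2 higher for Cre + NFIA against Cre, at day 7. A count test with quasi-likelihood dispersion, planned as a further alternative, was not run on the recovered reads.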
